A study of Mus musculus with 12 samples.

Results

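The glutamate and GABA receptor subunits, the proteins that assemble into the receptors for the main excitatory and inhibitory transmitters of the brain, were followed as mRNAs in somas and neurites of mouse hippocampal neurons with and without proteasome inhibition. Genes were taken by symbol: the AMPA (Gria), kainate (Grik), NMDA (Grin), delta (Grid) and metabotropic (Grm) glutamate receptor genes, the GABAA and related subunits (Gabra, Gabrb, Gabrg, Gabrd, Gabre, Gabrp, Gabrq, Gabrr) and the GABAB subunits (Gabbr). This gave 47 of the 27179 genes listed, of which 26 encode glutamate and 21 GABA receptor subunits. Primary neurons from newborn C57BL/6 pups (the study's methods name FVB mice too) were grown for 17 or 18 days on Transwell membranes, and somas were scraped off the membrane before RNA was taken from the neurites left on it. The 4 groups had 3 libraries each: Ctrl somas and Ctrl neurites, which received the DMSO vehicle, and MG132 somas and MG132 neurites, which received the proteasome inhibitor MG132 at 10 μM for 7 h. The neurons came from dissociated hippocampi and the neurite fraction was not sorted, so each library held RNA of every cell type on its side of the membrane.

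Ionotropic glutamate receptors are cation channels made of 4 subunits: AMPA receptors carry most fast excitation, NMDA receptors need the GRIN1 subunit and couple activity to calcium entry, and kainate and delta receptors modulate synapses. Metabotropic glutamate receptors signal through G proteins. GABAA receptors are chloride channels, mostly of alpha, beta and gamma subunits, and GABAB receptors are G protein coupled dimers of GABBR1 and GABBR2. Many of these subunits are made by glia as well: astrocytes express Grm3, Grm5, Gabrb1 and Gabrg1, and oligodendrocyte precursors express several AMPA subunits.

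The libraries held 4247610 to 22166347 counts, and the 47 genes together took 0.18 to 0.318% of the counts in Ctrl somas, 0.104 to 0.187% in MG132 somas, 0.0651 to 0.110% in Ctrl neurites and 0.0359 to 0.0662% in MG132 neurites. All 5 listed MG132 response genes (chaperones and their partners) rose in both fractions, and the 4 nuclear RNAs were lower in neurites under both conditions, while 3 of 7 mRNAs known from neurites (Bc1, Kif5a and Map2) were higher there. Summed markers of astrocytes were 4728 to 5903 CPM (a library's counts brought to a common total with TMM factors) in Ctrl somas, 2480 to 3251 in MG132 somas, 20890 to 26020 in Ctrl neurites and 9686 to 19860 in MG132 neurites, with 6 of 8 markers called lower with MG132 in somas and 3 of 8 in neurites. Gfap made up most of the astrocyte sums in neurites, with a mean of 17770 CPM in Ctrl and 11260 in MG132. Its means in somas were 1965 and 1276 CPM, while Gja1 was lower in Ctrl neurites (72.5 CPM) than in Ctrl somas (153 CPM). Oligodendrocyte lineage markers were called lower with MG132 for 5 of 8 genes in each fraction, microglia markers for 3 of 7 in somas and 6 of 7 in neurites, and endothelial and fibroblast markers for 4 of 4 tested in somas and 3 of 4 in neurites. No marker of these classes was at 0 in every library of a group except Cldn5, which had no counts in the neurites of either condition or in MG132 somas. None of 6 general neuron markers and none of 4 tested markers of inhibitory neurons was called with MG132 in either fraction, and of 5 markers of excitatory neurons Neurod6 was called lower in somas. With the replicate number as a block, Syt1 was called lower in somas and Snap25, Syt1 and Neurod6 in neurites. The glial calls with the block were 8 of 8 astrocyte markers in somas and 6 of 8 in neurites, and 8 of 8 oligodendrocyte lineage and 7 of 7 microglia markers in each fraction. In these bulk samples, fewer cells of a type and less RNA per cell cannot be told apart, and the part of the glial changes in the receptor results was not tested.

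**Figure D1:**
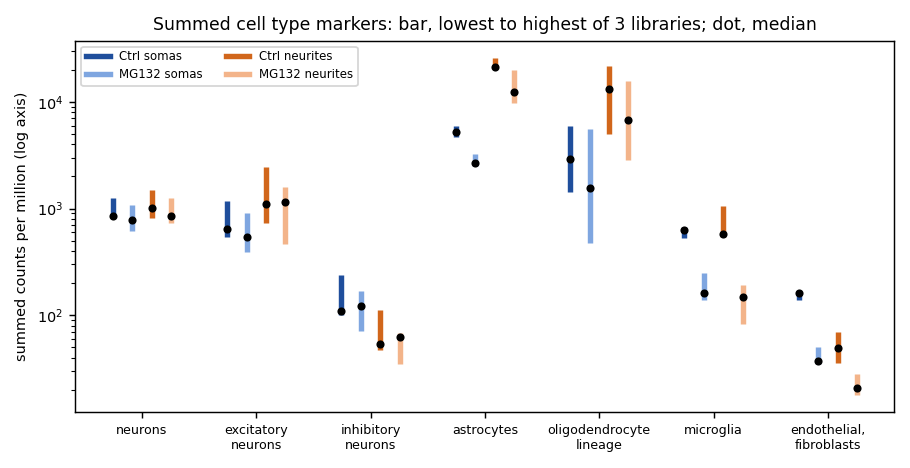
Summed CPM of cell type markers by group on a log axis, bars from the lowest to the highest of 3 libraries and dots at the median. Astrocyte sums of Ctrl neurites (20890 to 26020) lie above those of Ctrl somas (4728 to 5903), and the MG132 bars of microglia lie below the Ctrl bars. Gfap makes up most of the astrocyte sums in neurites.

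Over the 12 libraries, 37 of the 47 genes had enough counts to be tested. Gabra6, which encodes the alpha subunit of cerebellar granule cells, and Grm6, the receptor of retinal bipolar cells, had 0 counts in all 12 libraries. The other 8 untested genes (Gabre, Gabrp, Gabrq, Gabrr1, Gabrr2, Gabrr3, Grin2d and Grin3b) had 2 to 72 counts summed over all libraries. Per kilobase of exon (RPKM), abundant subunit mRNAs of Ctrl somas included Gria1 at 27.5 ± 7.05 (SD, n = 3), Gria2 at 23.8 ± 5.79, Gabbr1 at 16.2 ± 2.21 and Gabrb2 at 16.0 ± 2.18. Gria1 and Gria2 differed by less than their SDs, as did Gabbr1 and Gabrb2, while Gria2 lay above Gabbr1 by more than either SD. Of the NMDA subunits, Grin1 stood at 6.43 ± 1.55, Grin2b at 1.78 ± 0.506 and Grin2a at 0.792 ± 0.183 RPKM, and of the metabotropic receptors Grm5 at 6.73 ± 0.963 and Grm7 at 6.61 ± 1.56. Lengths were the union of annotated exons, and the RPKM depended on that choice. Per kilobase of the longest annotated transcript, Gria1 stood at 29.9 and Gria2 at 35.7, so that their order turned, Gabbr1 at 24.0, Gabrb2 at 25.4, Grin1 at 14.6, Grin2b at 1.83 and Grin2a at 0.971. For Grin2a, 13.7% of 75-base windows of its transcripts also occur in 1 other gene, so its count is less certain.

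The first comparison asked which subunit mRNAs changed with MG132. In somas, 9 of the 37 tested subunits fell and 0 rose, against 11.9% of all 14185 tested genes lower and 15.5% higher at an adjusted p below 0.05 (edgeR quasi-likelihood test, Benjamini-Hochberg adjustment). In neurites 8 fell and 0 rose, against 12.3% of all genes lower and 14.7% higher. The 8 genes that fell in neurites are 8 of the 9 that fell in somas, and Gabra4, Gabrb1, Gabrb2, Gria3, Grm3 and Grm5 are among them. The 2 comparisons share no library, although somas and neurites come from the same cultures and both comparisons came from the same fit. The overlap of calls over all genes is not given, so that of the subunits was not set against it. The median log2 fold change over the 37 subunits was -0.64 in somas, where that of all tested genes was -0.07, and -0.69 in neurites, where that of all genes was -0.16. A negative log2 value was fitted for 35 of 37 subunits in somas and 34 of 37 in neurites. Of all 14185 tested genes, 7514 had a negative value in somas and 7996 in neurites. Scaling by total counts moved the median of all genes in neurites to -0.30, with 940 genes higher and 1336 lower in place of 2085 and 1738. In somas that median was -0.095, with 1072 genes higher and 1037 lower in place of 2203 and 1694. On that scale 8 subunits were lower in somas and 7 in neurites. At an unadjusted p below 0.05, 12 subunits were lower and 0 higher in somas (18.3% and 20.4% of all genes) and 11 lower and 0 higher in neurites (19.5% and 19.1%). DESeq2 called 10 lower and 0 higher in somas (15.4% and 14.6% of all genes) and 9 lower and 0 higher in neurites (15.3% and 15%). With the replicate number as a block, 18 subunits were lower in somas (17.4% of all genes) and 13 in neurites (18.1%), and 0 were higher in either (19% and 17.7% of all genes).

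Of the 12 tested GABAA subunit genes, which build synaptic and extrasynaptic chloride channels, 5 fell in each fraction, and 12 of 12 had negative values in each. Gabra4, Gabrb1 and Gabrb2 are among the 5. Of all 14185 tested genes, 11.9% were called lower in somas and 12.3% in neurites, and 7514 and 7996 had negative values. Gabrb2 (chr11:42419515-42632591, plus strand, GRCm38), a beta subunit of synaptic receptors, read 117, 97.7 and 89.9 CPM in Ctrl somas and 51.7, 44.6 and 55.0 in MG132 somas. In neurites it read 39.1, 41.9 and 22.7 CPM in Ctrl and 22.1, 9.35 and 18.8 in MG132. The groups did not overlap in either fraction. The log2 fold changes were -1.01 ± 0.283 in somas (SE, adjusted p = 0.0159) and -1.08 ± 0.297 in neurites (adjusted p = 0.0142).

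Gabra4 and Gabrb1 lie head to head on chromosome 5, with 5′ ends that overlap by 388 bases in the annotation. Gabra4 (chr5:71569734-71658308, minus strand), an alpha subunit of extrasynaptic receptors, read 67.9, 40.5 and 47.6 CPM in Ctrl somas against 30.9, 11.7 and 23.3 in MG132 somas (log2 -1.23 ± 0.301, adjusted p = 0.00731). Its neurite values were 31.7, 28.7 and 26.2 CPM in Ctrl and 15.7, 11.1 and 13.5 in MG132 (log2 -1.12 ± 0.312, adjusted p = 0.0156). Neither fraction showed an overlap between the groups. Gabrb1 (chr5:71657921-72149572, plus strand), a beta subunit also made by astrocytes, read 59.2, 57.4 and 44.0 CPM in Ctrl somas and 25.0, 24.4 and 22.4 in MG132 somas (log2 -1.16 ± 0.262, adjusted p = 0.00438). In neurites it went from 118, 51.7 and 63.5 CPM to 21.9, 19.5 and 17.9 CPM, the lowest adjusted p of any subunit in these comparisons (log2 -1.97 ± 0.271, adjusted p = 9.78e-05). Ctrl neurite replicate 1 was the highest of the Gabrb1 values, and the MG132 values of both fractions lay within a narrow range of 17.9 to 25.0 CPM.

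Upstream sequence is shown for Gabrb2 and Gabra4, which fell in both fractions, and for comparison for Grin1, which was not called with MG132. The sequences come from RefSeq (GRCm38.p6), lie before an annotated start, leave out annotated exons, and are written 5′ to 3′ on the strand of the gene. Those of Gabrb2 and Grin1 end at the base before the start. For Gabra4, whose start is at 71658308, the bases next to the start are left out. They cover chr11:42420951-42421200 for Gabrb2 (plus strand, 1 of its annotated starts), chr5:71658364-71658558 for Gabra4 (minus strand, the part outside the Gabrb1 exon) and chr2:25319188-25319437 for Grin1 (minus strand). Capitals mark a CCAAT box in Gabra4 and 2 E-boxes in Grin1.
Gabrb2: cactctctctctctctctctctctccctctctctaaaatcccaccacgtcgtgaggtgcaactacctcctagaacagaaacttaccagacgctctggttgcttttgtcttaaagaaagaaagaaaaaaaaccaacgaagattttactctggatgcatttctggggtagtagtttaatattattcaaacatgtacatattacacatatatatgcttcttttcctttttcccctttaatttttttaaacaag
Gabra4: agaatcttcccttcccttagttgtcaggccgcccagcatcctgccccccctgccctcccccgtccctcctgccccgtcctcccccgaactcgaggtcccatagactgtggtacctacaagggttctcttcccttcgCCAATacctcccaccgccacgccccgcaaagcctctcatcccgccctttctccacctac
Grin1: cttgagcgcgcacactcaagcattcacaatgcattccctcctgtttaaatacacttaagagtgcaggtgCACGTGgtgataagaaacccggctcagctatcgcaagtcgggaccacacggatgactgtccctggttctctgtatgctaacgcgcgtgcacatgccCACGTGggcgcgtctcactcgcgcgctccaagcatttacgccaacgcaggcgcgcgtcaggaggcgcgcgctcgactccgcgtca
Windows of 250 bases before annotated starts were at hand for 32 of the 47 genes, and 5 motifs were searched in them on both strands. The E-box CACGTG was found for 1 of the 32 genes, Grin1, and in 6.02% of all 32851 windows. The cAMP response element TGACGTCA (1.55% of all windows) and the heat shock element (0.466%) were found for 0 of 32. CCAAT was found for 14 genes (33.8% of all windows) and TATAAA for 3, Gabra3, Gabrb2 and Grin3b (12.4%), where the Gabrb2 matches lie at other starts than the one shown.

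**Figure D2:**
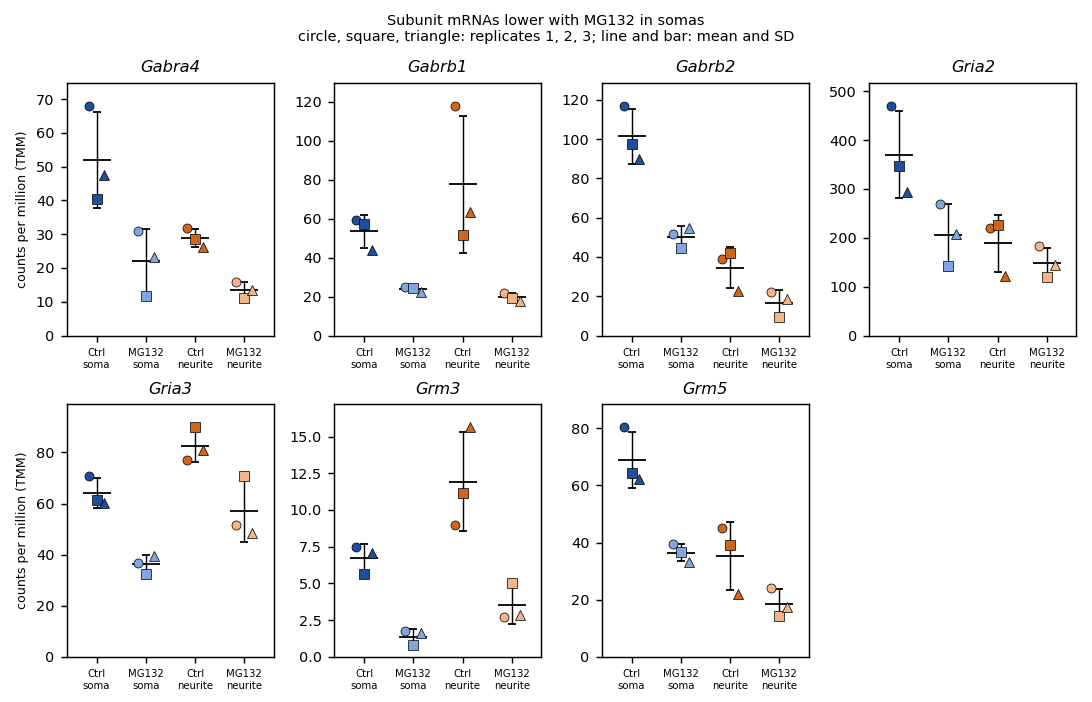
CPM in each of the 12 libraries for 7 subunits that fell with MG132 in somas, by group, with the mean and SD. The MG132 soma points of each gene lie below its Ctrl soma points, and Gabrb1 in Ctrl neurites spreads from 51.7 to 118 CPM.

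Among the AMPA subunits, Gria2 and Gria3 fell in somas and Gria3 in neurites. Gria2, which makes AMPA receptors impermeable to calcium, was the most counted subunit, with 470, 348 and 294.1 CPM in Ctrl somas and 269, 142 and 208 CPM in MG132 somas. These groups did not overlap (log2 -0.84 ± 0.277, adjusted p = 0.0345), while in neurites 219, 227 and 122 CPM in Ctrl overlapped 182, 121 and 144 CPM in MG132 (log2 -0.35 ± 0.278, adjusted p = 0.38). Gria3 read 70.8, 61.6 and 60.2 CPM in Ctrl somas and 36.9, 32.3 and 39.6 in MG132 somas (log2 -0.82 ± 0.182, adjusted p = 0.00394). In neurites it read 77.2, 89.8 and 81.0 CPM in Ctrl and 51.7, 70.9 and 48.4 in MG132, with no overlap and a smaller fold (log2 -0.53 ± 0.181, adjusted p = 0.0415). The Gria3 call was lost with total counts as the scale in somas (adjusted p = 0.0903) and in neurites (adjusted p = 0.208), as was the Gria2 call in somas (adjusted p = 0.0832). Gria1 had log2 values of -0.72 ± 0.331 and -0.54 ± 0.333 in somas and neurites, which missed the threshold (adjusted p = 0.12 and 0.251) and passed with the replicate block (0.00439 and 0.0411). Gria4 did not pass in either fraction.

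Of the 7 tested metabotropic receptors, Grm3 and Grm5 fell in both fractions. Grm3, a presynaptic and astrocytic receptor that lowers cAMP, went from 7.45, 5.65 and 7.05 CPM to 1.75, 0.792 and 1.60 CPM in somas, the largest fold of a called subunit (log2 -2.21 ± 0.44, adjusted p = 0.0019). In neurites it went from 8.99, 11.2 and 15.6 CPM to 2.73, 5.06 and 2.84 CPM (log2 -1.71 ± 0.423, adjusted p = 0.0077). Neither fraction had overlapping groups, and Grm3 was the only called subunit with under 20 CPM in every library. Astrocyte marker sums, given above, were lower with MG132 in the same libraries, and their part in the Grm3 values was not tested. Grm5, the postsynaptic receptor that couples to Gq and Homer proteins, read 80.3, 64.4 and 62.3 CPM in Ctrl somas and 39.5, 36.6 and 33.3 in MG132 somas (log2 -0.92 ± 0.258, adjusted p = 0.0159). Its neurite values of 44.9, 39.3 and 22 CPM in Ctrl met 24.1, 14.2 and 17.4 CPM in MG132, where Ctrl replicate 3 was below MG132 replicate 1 (log2 -0.95 ± 0.267, adjusted p = 0.0165). Grm2, a presynaptic autoreceptor, had the largest fitted value in somas (log2 -2.75 ± 1.07) and missed the threshold (adjusted p = 0.0703), but passed with the block (0.00642) and without Ctrl somas replicate 2 (0.0457), from 14.7, 1.77 and 8.70 CPM in Ctrl to 2.40, 0 and 1.11 CPM in MG132. Grm4, Grm7 and Grm8 did not pass in either fraction. Grm8 had 6, 23 and 0 counts in Ctrl neurites and 1, 2 and 0 in MG132 neurites (adjusted p = 0.0734, and 0.0384 without Ctrl neurites replicate 3), and the GABAA subunit Gabrg3 had 21, 16 and 0 against 0, 6 and 1 (adjusted p = 0.12), so that both rested on few counts.

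No NMDA, kainate, delta or GABAB subunit was called with MG132 in either fraction (0 of 5, 5, 2 and 2 tested). Of all genes, 11.9% were called lower and 15.5% higher in somas, and 12.3% and 14.7% in neurites. With so few genes, these counts do not set the families apart from all genes. Median log2 values in somas and neurites were -0.41 and -0.69 for NMDA, -0.51 and -0.38 for kainate, -0.82 and -0.50 for delta, and -0.59 and -0.14 for GABAB subunits. Those of all genes were -0.07 and -0.16. Grin1, the subunit common to NMDA receptors, read 67.9, 73.8 and 45.4 CPM in Ctrl somas and 84.0, 58.0 and 41.4 in MG132 somas, so the groups overlapped (log2 -0.03 ± 0.285, adjusted p = 0.95). In neurites it read 21.7, 27.1 and 16.1 CPM in Ctrl and 23.7, 15.4 and 15.6 in MG132 (log2 -0.27 ± 0.3, adjusted p = 0.545). Grin1 overlaps Grin1os on the opposite strand over 1307 exonic bases, and reads of the pair cannot be told apart where strand was not used. Gabbr1, the ligand-binding GABAB subunit, read 136, 135 and 106 CPM in Ctrl somas and 119, 84.0 and 90.5 in MG132 somas (log2 -0.37 ± 0.202, adjusted p = 0.198). In neurites its values were 96.2, 67.9 and 73.6 CPM in Ctrl and 88.2, 62.3 and 64.9 in MG132 (log2 -0.14 ± 0.204, adjusted p = 0.643). The block fit also called Gabbr1, Gabbr2, Gabra2, Gabra5, Gria1, Grid1, Grik5 and Grm2 lower in somas (adjusted p from 0.00439 for Gria1 to 0.0469 for Gabbr1). In neurites it added Gabra5, Gria1, Grid1 and Grik5, with adjusted p from 0.004 for Grik5 to 0.0442 for Grid1. A missed threshold here does not show equal levels, since the median standard error over subunits was 0.44 on the log2 scale in somas and 0.423 in neurites.

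**Figure D3:**
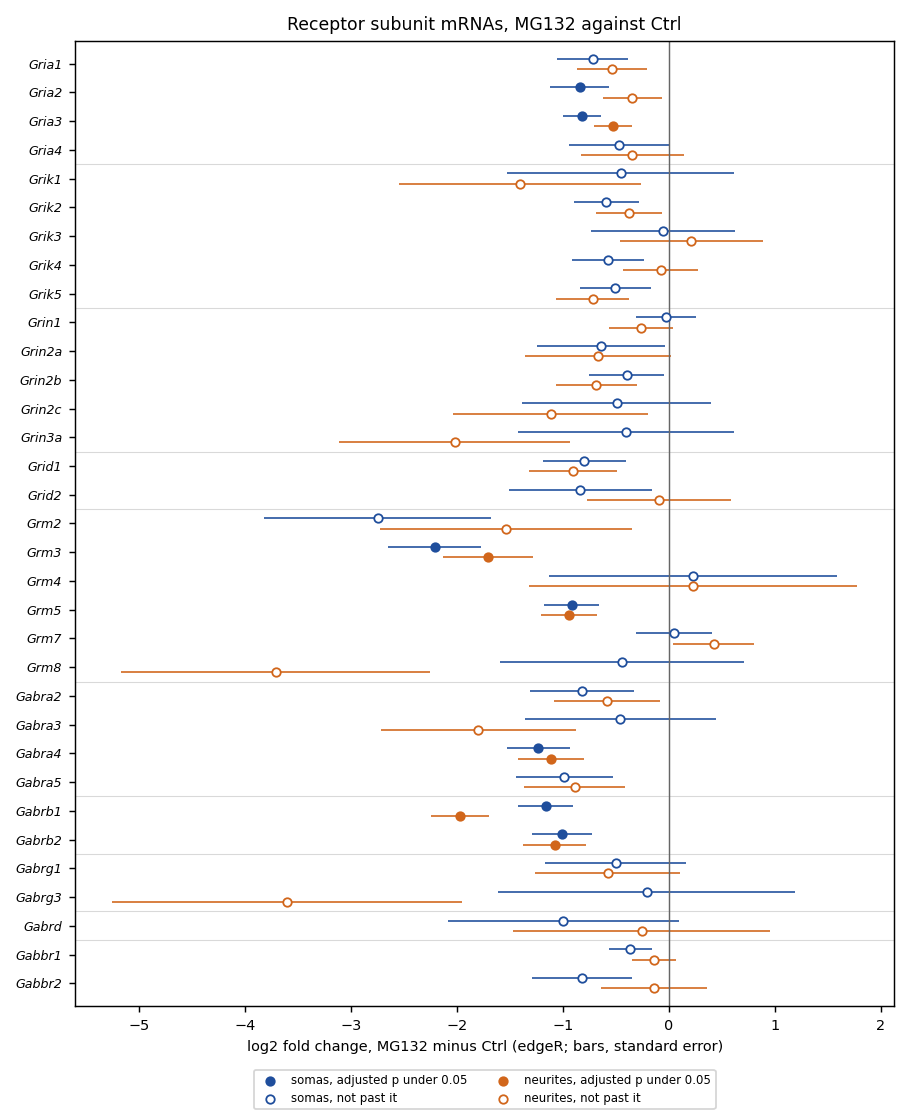
Log2 fold change with MG132 and its standard error for 33 tested subunits in somas (blue) and neurites (orange), with filled symbols for an adjusted p below 0.05. Filled symbols, 7 in somas and 6 in neurites, all lie left of 0, and the NMDA and kainate symbols are open.

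Several of these calls rested on particular libraries. In somas, Gabrb1, Gria3 and Grm3 passed whichever library of the comparison was left out, and in neurites Gabrb1 did. Without Ctrl somas replicate 1, 4 subunits passed in somas, and Gabra4 (adjusted p = 0.0522), Gabrb2 (0.0711), Grm5 (0.0844) and Gria2 (0.17) did not. Without MG132 somas replicate 2 or 3, 6 passed: replicate 2 decided Gabrb2 (adjusted p = 0.0559) and Gria2 (0.134), and replicate 3 decided Grm5 (0.0614) and Gria2 (0.0841). Without Ctrl somas replicate 2, Gria2 missed the threshold (adjusted p = 0.0646). In neurites, 3 subunits passed without MG132 neurites replicate 3, when Gabra4 (adjusted p = 0.077), Grm5 (0.107) and Gria3 (0.302) were lost. Without Ctrl neurites replicate 2, 4 passed, and Gabrb2 (adjusted p = 0.0592), Grm5 (0.0549) and Gria3 (0.132) did not. Without MG132 neurites replicate 2, 5 passed, and Gabrb2 (0.0571), Gabra4 (0.0669) and Grm5 (0.0765) were lost at these adjusted p values. Grm3 was lost without Ctrl neurites replicate 3 (adjusted p = 0.0561) and Grm5 without Ctrl neurites replicate 1 (0.0686). Gria3 in neurites passed only without MG132 neurites replicate 2, with an adjusted p of 0.0604 without Ctrl neurites replicate 1, 0.137 without Ctrl neurites replicate 3 and 0.143 without MG132 neurites replicate 1. In neurites Gabrb2 (adjusted p = 0.0645), Grm5 (0.0669) and Gria3 (0.0934) were also lost when only the 2 neurite groups were fitted. All of these fits kept a negative log2 value. The shares of all genes called in them are not given, so the counts of subunits that passed were not set against all genes.

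Whether MG132 acted differently in neurites and somas was tested as an interaction. No subunit passed (0 of 37, with 1 at an unadjusted p below 0.05, 0 by DESeq2 and 0 with the block). Of all genes, 0% passed in the same edgeR fit, 7.05% had an unadjusted p below 0.05, 0.591% passed by DESeq2 and 0.634% with the block. The lowest adjusted p of a subunit was 0.703 for Gabrb1, whose log2 fold change was lower in neurites than in somas (difference -0.81 ± 0.37), in 3 of 3 same-numbered sets. For Gria2, which fell in somas only, the difference was 0.50 ± 0.391 (adjusted p = 0.882). The median standard error of these differences was 0.563, so that differences of this size were not detectable here.

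The second comparison asked how subunit mRNAs were divided between neurites and somas. CPM compares the composition of the fractions, not the amount of RNA per neurite. In Ctrl neurons 10 of 37 subunits were lower in neurites and 0 higher, against 4.65% of all genes lower and 10.2% higher. In MG132 neurons 7 were lower and 2 higher, against 6.35% lower and 11.4% higher. The 7 are among the 10 of Ctrl neurons, and they include Gabrb2, Grin1, Grin2b, Grm5 and Grm7. Ctrl and MG132 neurons had separate libraries, but same-numbered libraries were taken as paired and both comparisons came from the same fit. This overlap was not set against that of all genes. The median log2 value over subunits was -0.67 in Ctrl and -0.74 in MG132 neurons, and that over all genes was -0.04 and -0.08. With the block, 14 subunits were lower in Ctrl (9.28% of all genes) and 12 in MG132 neurons (11.7%), while 0 and 2 were higher (13.7% and 15.1%). Scaling by total counts moved the median of all genes to -0.70 in Ctrl and -0.86 in MG132 neurons, with 324 genes higher and 2736 lower in Ctrl and 300 higher and 4336 lower in MG132, in place of 1452 and 659 and of 1615 and 901. On that scale the subunits had a median of -1.38 in Ctrl and -1.57 in MG132 neurons, 20 and 19 were lower and 0 were higher. At an unadjusted p below 0.05, 13 subunits were lower and 0 higher in Ctrl (12% and 15.6% of all genes) and 11 lower and 2 higher in MG132 (14.3% and 16.7%). DESeq2 called 13 lower and 0 higher in Ctrl (7.94% and 11.3% of all genes) and 8 lower and 2 higher in MG132 (9.99% and 14.5%).

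The NMDA receptor subunits Grin1 and Grin2b were lower in neurites in both conditions. From the Grin1 values above, the log2 difference of neurites against somas was -1.52 ± 0.297 in Ctrl (adjusted p = 0.00253) and -1.76 ± 0.3 in MG132 neurons (adjusted p = 0.000895), with no overlap between fractions. Grin2b, the glutamate-binding subunit that predominates early in development, read 56.1, 31.0 and 45.3 CPM in Ctrl somas and 22.2, 12.2 and 10.4 in Ctrl neurites (log2 -1.59 ± 0.37, adjusted p = 0.00886). In MG132 neurons it read 39.3, 32.3 and 29.0 CPM in somas and 10.7, 4.65 and 13.0 in neurites, again without overlap (log2 -1.88 ± 0.378, adjusted p = 0.00307). Grin2a, which joins later in development, had similar log2 values (-1.74 ± 0.65 in Ctrl and -1.76 ± 0.663 in MG132) at 1.17 to 17.9 CPM and missed the threshold (adjusted p = 0.0899 and 0.0807). It passed with the block (0.00554 and 0.0169) and, in Ctrl, without Ctrl neurites replicate 1 (0.00555). Grm7, the presynaptic receptor of the active zone, read 49.5, 33.9 and 33.3 CPM in Ctrl somas and 6.61, 17.4 and 9.24 in Ctrl neurites (log2 -1.78 ± 0.38, adjusted p = 0.00509). In MG132 neurons Grm7 read 58.1, 22.4 and 39.8 CPM in somas and 19.6, 14.7 and 11.7 in neurites (log2 -1.40 ± 0.373, adjusted p = 0.0169). Its somas were above its neurites in every library of each condition.

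**Figure D4:**
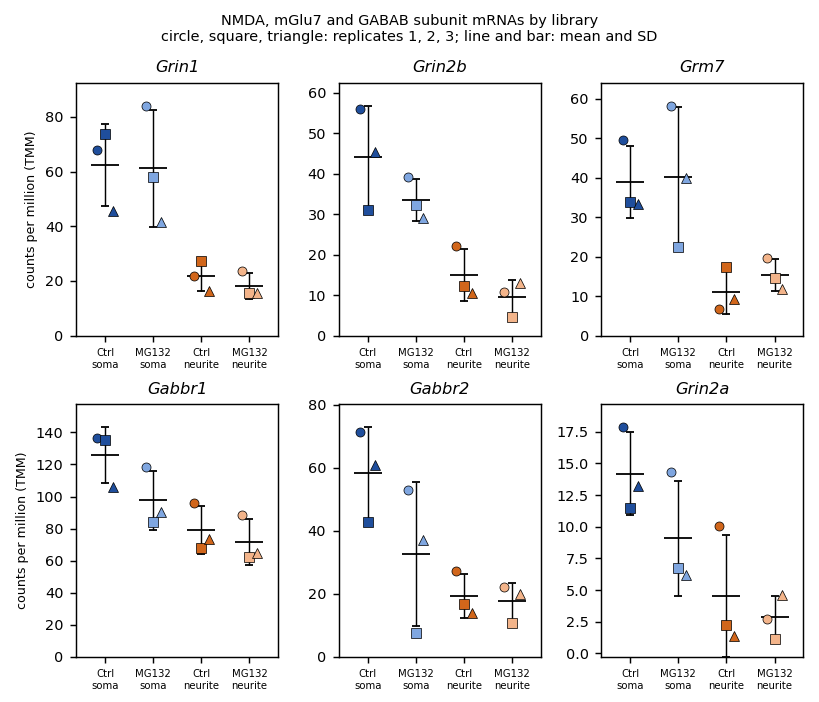
CPM in each library for 6 subunits of the NMDA, mGlu7 and GABAB receptors, with the mean and SD. Grin1, Grin2b and Grm7 are lower in the neurite libraries than in the soma libraries of the same condition, and Gabbr2 in MG132 somas spreads from 7.72 to 53.0 CPM.

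The GABAB and GABAA subunits called between fractions were all lower in neurites. Some that were not called had positive values, such as Gabra3 in Ctrl (log2 1.07 ± 0.898, adjusted p = 0.49). Gabbr2, the subunit that couples to G proteins, read 71.3, 42.8 and 60.9 CPM in Ctrl somas and 27.2, 16.8 and 13.9 in Ctrl neurites (log2 -1.61 ± 0.495, adjusted p = 0.0393). Gabbr1 differed by less (log2 -0.67 ± 0.204, adjusted p = 0.0367). In MG132 neurons neither passed (log2 -0.45 ± 0.203, adjusted p = 0.146 for Gabbr1, and -0.93 ± 0.489, adjusted p = 0.211 for Gabbr2). Gabbr2 ranged in MG132 somas from 7.72 CPM in replicate 2 to 53.0 in replicate 1. Without MG132 somas replicate 2, Gabbr2 passed (adjusted p = 0.016), and with the block Gabbr1 did (0.0264). From the library values above, Gabrb2 differed by -1.55 ± 0.289 in Ctrl (adjusted p = 0.00175) and -1.63 ± 0.297 in MG132 (adjusted p = 0.00146), and Grm5 by -0.97 ± 0.26 (adjusted p = 0.0203) and -0.99 ± 0.265 (adjusted p = 0.0175). Soma and neurite libraries of Gabrb2 and Grm5 did not overlap in either condition. Gabra4 and Grid1 did not pass in either condition (adjusted p from 0.0719 to 0.19) and did with the block (0.0102 for Gabra4 and 0.0467 for Grid1 in Ctrl, 0.0341 and 0.0338 in MG132). Gabra4 in MG132 neurons also passed without MG132 somas replicate 2 (0.0194).

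Among the AMPA subunits Gria2 was lower in Ctrl neurites (log2 -0.97 ± 0.279, adjusted p = 0.0282), while Gria1 (log2 -0.38 ± 0.33, adjusted p = 0.5) and Gria4 (-0.34 ± 0.478, adjusted p = 0.708) did not pass. Gria3 was higher in MG132 neurites than in MG132 somas (log2 0.65 ± 0.182, adjusted p = 0.0215), with the sign reversed to -0.08 when total counts set the scale. In Ctrl neurons its log2 value was 0.36 ± 0.18 (adjusted p = 0.206), with all neurite libraries above all soma libraries. Grm3 was higher in MG132 neurites (log2 1.33 ± 0.442, adjusted p = 0.0492) and had a log2 value of 0.83 ± 0.407 in Ctrl (adjusted p = 0.203). Summed astrocyte markers were higher in neurites in both conditions, where Gfap made up most of the sum. Of the 8 markers, 4 were called higher in Ctrl and 5 in MG132, and 1 was called lower in each. The part of astrocyte RNA in the Grm3 values was not tested. Gabrb1, which astrocytes also express, did not pass (log2 0.53 ± 0.258 in Ctrl, adjusted p = 0.198, and -0.28 ± 0.265 in MG132, adjusted p = 0.522). None of these neurite to soma values was tested for a difference between Ctrl and MG132 other than by the interaction above, which is the same contrast.

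**Figure D5:**
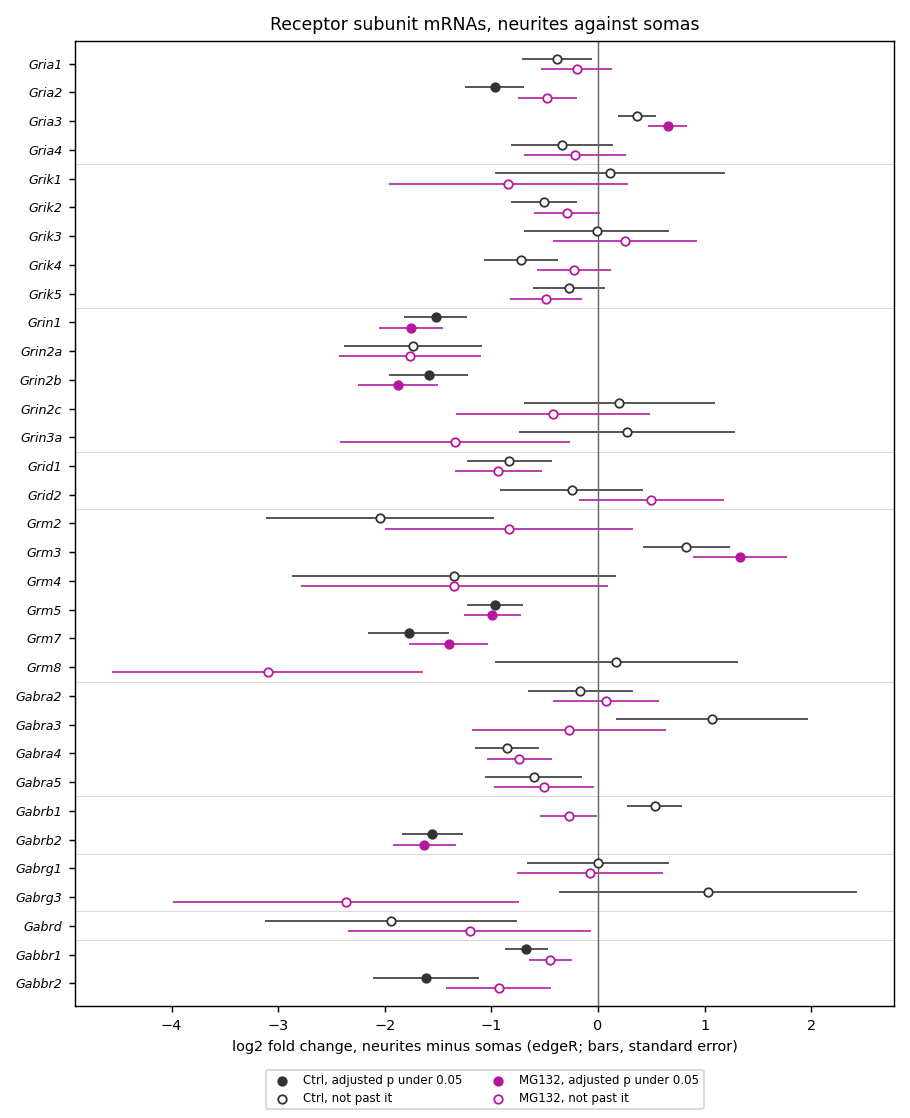
Log2 fold change of neurites against somas and its standard error for 33 tested subunits in Ctrl (black) and MG132 (magenta) neurons, filled for an adjusted p below 0.05. Grin1, Grin2b, Grm7, Gabrb2 and Grm5 are filled and left of 0 in both conditions, and Gria3 and Grm3 are filled and right of 0 in MG132, where total counts turn Gria3 to -0.08.

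Leaving out libraries changed some of these calls. The shares of all genes called in these fits are not given, so the counts below were not set against all genes. Grin1, Grin2b and Gabrb2 passed without any 1 library in both conditions, and Grm7 did in Ctrl. In Ctrl neurons 5 subunits remained called lower without Ctrl somas replicate 1 or without Ctrl neurites replicate 3, which both removed Gabbr1 (adjusted p = 0.104 and 0.0993), Gabbr2 (0.107 and 0.126), Gria2 (0.107 and 0.0971) and Grm5 (0.0768 and 0.0704). Gabbr1 was also lost without Ctrl neurites replicate 2 (0.127) and Ctrl somas replicate 2 (0.088), and Gabbr2 without Ctrl neurites replicate 2 (0.112) and Ctrl somas replicate 3 (0.0772). In MG132 neurons 4 passed as lower without MG132 somas replicate 1, MG132 neurites replicate 2 or MG132 neurites replicate 3. These 3 libraries in that order decided Grm5 (adjusted p = 0.0809, 0.0879 and 0.0853) and Grm7 (0.125, 0.0603 and 0.0868). Gria3 missed the threshold without MG132 neurites replicate 2 (0.142) or MG132 somas replicate 2 (0.082). Grm3 passed only without MG132 neurites replicate 1, and its adjusted p was 0.26 without MG132 neurites replicate 2, 0.0522 without MG132 neurites replicate 3, and 0.0695, 0.119 and 0.0844 without MG132 somas replicates 1, 2 and 3.

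Ratios of subunits within a library do not depend on the scaling, and 5 were compared by exact permutation tests over 3 against 3 libraries, two-sided, for which 0.1 is the smallest p possible. Over 20 comparisons no adjusted p was below 0.667. The log2 ratio of Gria1 to Gria2 per exon length was 0.20, 0.28 and 0.12 in Ctrl somas and 1.03, 0.73 and 0.40 in Ctrl neurites, a difference of 0.52 with no overlap (exact permutation p = 0.1). Per longest transcript the mean ratio in Ctrl somas was -0.26 in place of 0.20. The log2 ratio of Gabbr1 to Gabbr2 was 0.72, 1.45 and 0.58 in Ctrl somas and 1.61, 1.80 and 2.18 in Ctrl neurites, higher by 0.95 with no overlap (exact permutation p = 0.1). Grin2a to Grin2b, the ratio that rises as NMDA receptors mature, was -1.15 ± 0.176 (SD, n = 3) in Ctrl somas and -1.51 ± 0.454 in MG132 somas on the log2 scale (exact p = 0.3).

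A list of 59 proteins that traffic, anchor or modify the receptors had 55 tested genes, of which 3 rose and 9 fell with MG132 in somas (15.5% and 11.9% of all genes) and 2 rose and 12 fell in neurites (14.7% and 12.3%). With the block 4 rose and 15 fell in somas (19% and 17.4% of all genes) and 3 rose and 23 fell in neurites (17.7% and 18.1%). Its median log2 value was -0.14 in somas and -0.43 in neurites, beside -0.07 and -0.16 over all genes. Nptx2, a secreted pentraxin that clusters AMPA receptors and is induced by activity, rose from 11.1, 23.4 and 13.0 CPM to 77.3, 38.0 and 37.4 CPM in somas (log2 1.69 ± 0.36, adjusted p = 0.00304) and rose in neurites (log2 1.34 ± 0.382, adjusted p = 0.0175). The postsynaptic scaffolds Homer1, which binds Grm5, and Homer3 rose in somas (log2 0.96 ± 0.261 and 1.40 ± 0.389, adjusted p = 0.0136 and 0.015), and the scaffold Dlg1 (SAP97) rose in neurites (log2 0.70 ± 0.206, adjusted p = 0.0196). Cacng4, an AMPA auxiliary subunit (TARP gamma 4) also found in glia, fell from 12.2, 10.6 and 8.38 CPM to 1.20, 1.78 and 0.696 CPM in somas (log2 -3.22 ± 0.484, adjusted p = 0.000258) and in neurites (log2 -2.51 ± 0.437, adjusted p = 0.000657). Kctd12b, of the KCTD family of GABAB auxiliary subunits, fell in somas (log2 -4.81 ± 0.746, adjusted p = 0.000316) and in neurites (log2 -4.01 ± 0.724, adjusted p = 0.000887), from 8.97, 13.1 and 5.18 CPM to 0, 0.594 and 0.41 CPM in somas. Shisa9 and Cacng8, both AMPA auxiliary subunits, fell in somas (log2 -1.92 ± 0.393 and -1.29 ± 0.433), as did Porcn and Cnih3, which act in AMPA receptor assembly and export, in neurites (log2 -1.89 ± 0.348 and -1.66 ± 0.487). Cacng8 was also called lower in neurites and Porcn in somas, and each of these calls held in 1 of 6 fits with a library left out. No gene of the partner list moved in opposite directions in the 2 fractions at the threshold.

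Some of these partner calls were lost with 1 library fewer. Homer1 missed the threshold without Ctrl somas replicate 1 or 3 or MG132 somas replicate 1 (adjusted p up to 0.0859), Homer3 without Ctrl somas replicate 2 or MG132 somas replicate 3 (up to 0.0634), and Cacng8 in somas without any 1 of the 6 libraries (up to 0.115). In neurites Nptx2 was lost without replicate 1 of either group (up to 0.0672), Dlg1 without Ctrl neurites replicate 1 or 2 or MG132 neurites replicate 2 (up to 0.0842), and Cnih3 without Ctrl neurites replicate 1 or MG132 neurites replicate 2 or 3 (up to 0.113). Cacng4 and Kctd12b in both fractions, Nptx2 and Shisa9 in somas and Porcn in neurites passed in every such fit.

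Between fractions, 5 partner genes were higher and 6 lower in Ctrl neurites, and 5 higher and 9 lower in MG132 neurites, against 10.2% of all genes higher and 4.65% lower in Ctrl and 11.4% and 6.35% in MG132. With the block 9 were higher and 9 lower in Ctrl (13.7% and 9.28% of all genes) and 7 higher and 17 lower in MG132 (15.1% and 11.7%). Trak2, a kinesin adaptor that binds GABAA receptors, was higher in neurites (log2 2.20 ± 0.284 in Ctrl, adjusted p = 7.82e-05, and 2.002 ± 0.282 in MG132, adjusted p = 0.00018), as was the scaffold Shank3 (log2 1.71 ± 0.33 and 1.42 ± 0.332, adjusted p = 0.00236 and 0.00786). Both passed without any 1 library. Cacng4 was higher in neurites too (log2 1.29 ± 0.412 and 1.99 ± 0.486), but its Ctrl call was lost without any 1 of the 6 libraries (adjusted p up to 0.179) and its MG132 call without MG132 neurites replicate 2 or MG132 somas replicate 3 (up to 0.114). Lhfpl4 (log2 1.02 ± 0.261 in Ctrl) and Gabarap (log2 1.07 ± 0.273 in MG132), which act in GABAA receptor clustering and traffic, were higher in neurites, the first not without Ctrl somas replicate 2 or 3 (up to 0.104) and the second not without MG132 neurites replicate 2 (0.0575). Of the genes lower in neurites, Shisa6, an AMPA auxiliary subunit, read log2 -1.11 ± 0.304 in Ctrl and -1.23 ± 0.303 in MG132, and Nptx2 read -1.23 ± 0.379 and -1.58 ± 0.362. Nptx1, a related pentraxin, and Shisa9 were lower in Ctrl neurites (log2 -1.50 ± 0.377 and -1.49 ± 0.392), and Prrt1, another AMPA auxiliary protein, and Porcn in MG132 neurites (log2 -2.08 ± 0.657 and -1.99 ± 0.344). Porcn in MG132 passed without any 1 library, and the other genes of these last 2 sentences did not, with adjusted p up to 0.0729 for Shisa6 in Ctrl (without Ctrl neurites replicate 3 or Ctrl somas replicate 2) and 0.0564 in MG132 (MG132 neurites replicate 3 or MG132 somas replicate 1). Nptx2 reached 0.165 in Ctrl (each of the 6 libraries except Ctrl somas replicate 1) and 0.0624 in MG132 (MG132 somas replicate 1), Nptx1 0.0607 (Ctrl neurites replicate 2 or 3), Shisa9 0.0892 (Ctrl neurites replicate 2 or 3 or Ctrl somas replicate 2) and Prrt1 0.163 (replicates 1 and 2 of MG132 neurites and 1 and 3 of MG132 somas). Nptx1 was also called lower in MG132 neurites and Porcn in Ctrl neurites, each in 2 of 6 fits with a library left out.

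Of 21 genes for making, packing and taking up glutamate and GABA, 20 were tested. With MG132 1 rose and 8 fell in somas, and 1 rose and 6 fell in neurites, against 15.5% of all genes higher and 11.9% lower in somas and 14.7% and 12.3% in neurites. The median log2 values were -0.72 and -0.57, beside -0.07 and -0.16 over all genes, and the block gave the same numbers of calls. Slc1a4, a transporter of neutral amino acids, rose from 33.0, 43.1 and 33.7 CPM to 101, 125 and 91.2 CPM in somas (log2 1.53 ± 0.266, adjusted p = 0.000736) and rose in neurites (log2 1.46 ± 0.273, adjusted p = 0.00111). The genes of GABA uptake and breakdown that fell included Aldh5a1, which ends GABA breakdown (log2 -1.54 ± 0.207 and -1.61 ± 0.207 in somas and neurites, adjusted p = 0.000108 and 5.97e-05) and Slc6a11, the astrocytic GAT3 (log2 -1.37 ± 0.353 in somas). Slc6a13 (GAT2) had 137, 40 and 45 counts in Ctrl somas and 1, 0 and 1 counts in MG132 somas, a ratio of 0.00729 with an exact counting interval of 0.000877 to 0.0266 (adjusted p = 0.00135). In neurites its 13, 2 and 2 counts against 0, 3 and 0 gave a ratio of 0.103 (0.0192 to 0.354, counting error only), and the call (adjusted p = 0.0389) was lost with the block (0.0637) and without Ctrl neurites replicate 1 or any MG132 neurites library (up to 0.367). Glul, the glutamine synthetase of astrocytes, fell in neurites from 1088, 872 and 807 CPM to 334, 379 and 331 CPM (log2 -1.41 ± 0.215, adjusted p = 0.000241). Glul was also called lower in somas, in 6 of 6 fits with a library left out. Slc6a11 missed the threshold in somas without Ctrl somas replicate 1 or MG132 somas replicate 3 (up to 0.0712). It was also called lower in neurites, in 3 of 6 such fits.

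Between fractions, 3 genes of this list were higher and 3 lower in neurites in each condition. Of all genes, 10.2% were higher and 4.65% lower in Ctrl, and 11.4% and 6.35% in MG132. With the block 3 were higher and 8 lower in Ctrl (13.7% and 9.28% of all genes) and 5 higher and 5 lower in MG132 (15.1% and 11.7%). Glul, Slc1a2 (the main astrocytic glutamate transporter) and Abat (GABA transaminase) were higher in neurites, by log2 1.48 ± 0.215, 1.01 ± 0.216 and 1.40 ± 0.202 in Ctrl and 1.25 ± 0.214, 1.12 ± 0.217 and 1.11 ± 0.201 in MG132 neurons. Slc1a1, the neuronal glutamate transporter, was lower in neurites (log2 -1.31 ± 0.274 in Ctrl, adjusted p = 0.00435, and -1.36 ± 0.275 in MG132, adjusted p = 0.00316). These 4 genes passed without any 1 library. Slc17a6, a vesicular glutamate transporter, had 26, 36 and 47 counts in Ctrl somas and 0, 0 and 1 in Ctrl neurites, a ratio of 0.016 (0.000402 to 0.0911, counting error only, adjusted p = 0.0237), and its call held only without Ctrl somas replicate 1 (adjusted p up to 0.0916 without another). In MG132 neurons Gad1, which makes GABA (log2 -1.23 ± 0.386, adjusted p = 0.0384), and Slc1a4 (log2 -0.88 ± 0.263, adjusted p = 0.0299) were lower in neurites. Gad1 held only without MG132 neurites replicate 1 or MG132 somas replicate 3 (up to 0.165) and Slc1a4 only without MG132 neurites replicate 2 (up to 0.142).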

How the data were processed

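RNA was captured by polyA selection from somas and neurites, and 12 libraries were sequenced. Per the labels and the study's methods, the authors trimmed reads with Trimmomatic 0.38.0, aligned single-end reads to mm10 with STAR, and counted reads per gene with featureCounts 2.0.1 at default settings, which use no strand. The deposited values are whole-number counts per Entrez gene, with no normalization. Of 27179 genes, 25275 (93%) had a RefSeq symbol. Exon lengths came from GENCODE M21 rather than RefSeq.

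Groups and replicate numbers came from the sample labels. Counts were fitted in R 4.3.3 with edgeR 4.0.16 (filterByExpr, TMM factors, 1 quasi-likelihood model with 4 group means over 12 libraries, p adjusted over 14185 genes by the Benjamini-Hochberg method), with DESeq2 1.42.0 as an alternative. A call is an adjusted p below 0.05 with no minimum fold. The labels do not say that replicates are separate cultures, so p-values measure the spread between these libraries. Intervals for low counts cover counting error only. The members, lists and tests were chosen with earlier results of these data known. The text gives library values for each subunit called in a comparison and for Grin1, Gria2 and Gabbr1, and up to 4 called genes in each direction from the partner and transmitter lists, by largest fold. Some genes that these rules name are counted in the totals but not reported here, in the text or the figures.

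Replicate numbers follow the dates in the library names except for 1 MG132 neurites library. Same-numbered libraries deviated together from their group means in every compared pair of groups (r = 0.165 to 0.248 over 12 pairs, against -0.181 to -0.00639 for different numbers), so the numbers were taken to pair the samples, and the replicate block is given beside results it changes. On simulated counts for MG132 against Ctrl somas, the fit recovered 12% of genes changed by 1 on the log2 scale (13867 genes fitted) and 93% of those changed by 2 (13833 genes). In each simulation 200 genes were changed and all others were equal between groups. In the data 2203 genes were called higher and 1694 lower in this comparison, so these shares do not give the recovery there. RefSeq windows and ratios were computed with Python 3.11.15 and scipy 1.17.1.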

Additional observations from a re-analysis of the deposited data

How the results depend on the processing

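Counts of called subunits depended on the settings more than directions did. With the replicate block, 18 subunits were lower with MG132 in somas in place of 9, 13 in neurites in place of 8, and 12 were lower in MG132 neurites than somas in place of 7, and the block lost none of the 36 subunit calls made without it and added others. With an adjusted p below 0.01 and over 1.7-fold, 5 and 3 subunits were lower with MG132 in somas and neurites, 5 and 4 were lower in neurites than somas in Ctrl and MG132, and 0 were higher. With an absolute log2 fold change over 1.7 these counts were 1, 2, 1, 2 and 0. Scaling by total counts gave 20 and 19 subunits lower in neurites in Ctrl and MG132 and 0 higher, with Gria3 in MG132 neurons reversed to -0.083. Fitting only the groups compared gave 5 subunits lower with MG132 in neurites. No count filter, at least 10 counts in every library, and only the groups compared each left 1 subunit higher in MG132 neurites than somas in place of 2. For the lines with a fold threshold, the filters and the fit of only the groups compared, no share of all genes is given. These counts were therefore not set against all genes.

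Leaving out each library in turn gave 4 to 9 subunits lower with MG132 in somas, 3 to 8 in neurites, 5 to 11 lower in neurites than somas in Ctrl, 4 to 9 in MG132, and 0 to 2 higher in MG132. The shares of all genes called in these fits are not given, so these counts were not set against all genes. Of 216 such fits of the 36 calls, 152 kept the call and 64 lost it with the same sign. All 36 kept it with DESeq2 and with its size factors, 35 with dominant and mitochondrial genes left out of the scaling, 34 with no count filter, 30 with only the groups compared and 31 with total counts. With at least 10 counts in every library 33 kept it and 3 could not be fitted. Depth limits the subunits with few counts, for which standard errors passed 1 on the log2 scale.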
